A study of Mus musculus with 4 samples.

Results

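The expression of 8 genes that carry glucose into the islet cell and make or remove glucose 6-phosphate was followed in mouse islets kept at low or high glucose. The genes were looked up by symbol in the deposited table of 24157 genes and lncRNAs. Their list was chosen with earlier results of these data known. It holds the transporters Slc2a1, Slc2a2 and Slc2a3, the hexokinases Hk1 and Hk2, and the glucose-6-phosphatase catalytic subunits G6pc2 and G6pc3. It also holds the glucose 6-phosphate transporter of the endoplasmic reticulum, Slc37a4. All 8 were found, on 11 rows of RefSeq entries, and where a symbol had several rows the one with the highest mean over the 4 libraries was used. Not every enzyme of these steps is among them.

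Islets came from male C57bl6 mice of 3 months, and no genotype beyond the strain is given. They were pooled and kept overnight in medium with 11 mM glucose, and then all of them were moved to 2.8 mM glucose for 2 h. Total RNA was then taken after incubation in either 2.8 or 16.8 mM glucose, with 100 islets per library and 2 libraries, numbered 1 and 2, at each concentration. This incubation lasted 12 h by the study's design. On the samples at 2.8 mM the label reads 2 h instead, and the data do not show which is right. If the label is right, concentration and incubation time differ together and cannot be told apart in any difference below. Because the islets came from a common pool, the spread between libraries, and every p-value below, covers differences between dishes and library preparation and not between animals.

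Glucose enters a cell down its gradient through transporters of the GLUT family and is phosphorylated by hexokinases, which keeps it in the cell for glycolysis, glycogen or the pentose phosphate pathway. In the endoplasmic reticulum a glucose-6-phosphatase can reverse the step, on substrate that the Slc37a4 product carries across the membrane. In beta cells the flux through this step sets the rate of ATP production and with it insulin secretion, so that the transporters, kinases and phosphatases together are regarded as the glucose sensor of the islet.

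The promoters of 4 of the genes are shown because they belong to 3 of the genes that rose at high glucose and to the member that stood lower. Each is the 250 bases before the annotated start, 5′ to 3′ on the gene's strand, from RefSeq on GRCm38.p6. Capitals mark ACGTG on either strand. This is the core that CACGTG, the E-box bound by factors such as Myc and USF, shares with the hypoxia response element. The motifs were chosen with the sequences in view.
G6pc2, chr2:69219699-69219948, plus strand: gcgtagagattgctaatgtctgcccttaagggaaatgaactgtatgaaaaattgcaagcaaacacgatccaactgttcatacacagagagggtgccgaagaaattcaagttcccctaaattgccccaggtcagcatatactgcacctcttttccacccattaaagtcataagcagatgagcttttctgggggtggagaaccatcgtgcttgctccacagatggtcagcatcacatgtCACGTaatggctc
Slc37a4, chr9:44396849-44397098, plus strand: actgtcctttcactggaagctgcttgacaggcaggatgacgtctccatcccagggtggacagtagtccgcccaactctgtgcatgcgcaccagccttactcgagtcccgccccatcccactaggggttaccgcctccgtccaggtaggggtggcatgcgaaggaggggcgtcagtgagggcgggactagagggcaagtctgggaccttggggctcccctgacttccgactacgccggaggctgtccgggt
Slc2a1, chr4:119108495-119108744, plus strand: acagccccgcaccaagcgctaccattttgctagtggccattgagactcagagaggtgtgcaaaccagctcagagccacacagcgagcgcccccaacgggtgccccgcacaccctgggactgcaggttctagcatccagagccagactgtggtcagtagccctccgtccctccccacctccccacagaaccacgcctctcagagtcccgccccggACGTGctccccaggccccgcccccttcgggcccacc
G6pc3, chr11:102189449-102189698, plus strand: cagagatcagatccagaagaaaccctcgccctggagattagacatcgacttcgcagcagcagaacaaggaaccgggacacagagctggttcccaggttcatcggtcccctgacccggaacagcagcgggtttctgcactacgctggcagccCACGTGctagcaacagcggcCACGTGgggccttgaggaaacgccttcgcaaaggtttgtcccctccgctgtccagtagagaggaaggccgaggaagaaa
RefSeq starts were given for 7 of the 8 genes, as 11 entries, and not for Slc2a3. Each sequence occurred once in the chromosome it came from in NCBI build 37, the build of the deposited values, so the start could be set against the transcript measured. The G6pc2 start lay 22 bases before the start of that transcript, the Slc37a4 start at the same base, and the Slc2a1 and G6pc3 starts 34 and 30 bases inside it.

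The core began 13 bases before the G6pc2 start and 36 bases before that of Slc2a1, and lay at 226 and 52 bases before the start of Hk2. In G6pc3 it formed 2 full CACGTG boxes, beginning 99 and 79 bases before the start, and no other member's 250 bases held CACGTG. Neither form was found before any of the 3 starts of Slc37a4, the 2 of Hk1, the start of Slc2a2 or the upstream start of G6pc2. Among all 32851 RefSeq promoter sequences of this length, 16.6% held ACGTG and 6.02% held CACGTG, counting both strands and including overlaps of the shorter form with the longer. These are matches of letters only. A relation between the matches and the changes at 16.8 mM was not tested.

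Values are RPKM, reads scaled to transcript length and to sequencing depth, as the authors deposited them. Multiplied by the stretch from transcript start to end, introns included, they gave whole reads more often than multiplied by the summed exon length. The length used was thus that stretch, and a long gene has a low RPKM at a given number of reads. This concerns the length only and does not show whether reads in introns were counted. In its methods the paper describes count tables from reads on RefSeq exons. Depth recovered from the steps between values was 50810000 to 60720000 reads per library. Replicates were correlated at a Pearson r of 0.981 (2.8 mM) and 0.980 (16.8 mM) over 16234 rows, against 0.950 to 0.955 across concentrations, a description over rows that are not independent. Of these rows, 1409 were higher and 3436 lower at 16.8 mM by limma on log2(RPKM + 0.1) with a Benjamini-Hochberg adjusted p under 0.05, that is 8.68% and 21.2%. The median log2 fold change of all rows was -0.13. With the libraries centred on their medians the split was 3043 higher and 3517 lower, and with quantile normalisation 2811 and 3892.

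Of the 8 genes, 4 rose at high glucose and 0 fell among the 7 that could be tested by limma. G6pc2 rose most, and Slc37a4, Slc2a1 and Hk1 each rose to about double, while Slc2a2, Slc2a3 and G6pc3 did not pass the test. At an unadjusted p under 0.05, 5 were higher and 0 lower, against 12.9% and 32.3% of all rows. Limma voom on reads rebuilt from the RPKM values called 6 higher and 1 lower of 8, against 13.6% and 31.5% of the 15290 rows it tested. In 7 of the 8 both libraries at 16.8 mM lay above both at 2.8 mM, and in the remaining gene, G6pc3, below. Among all 13761 genes whose mean reached 0.1 RPKM, 21.8% lay wholly above and 49.3% wholly below. The median log2 fold change of the 7 genes was 0.68. Hk2, with a mean under 0.1 RPKM, was the member not tested.

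**Figure D1:**
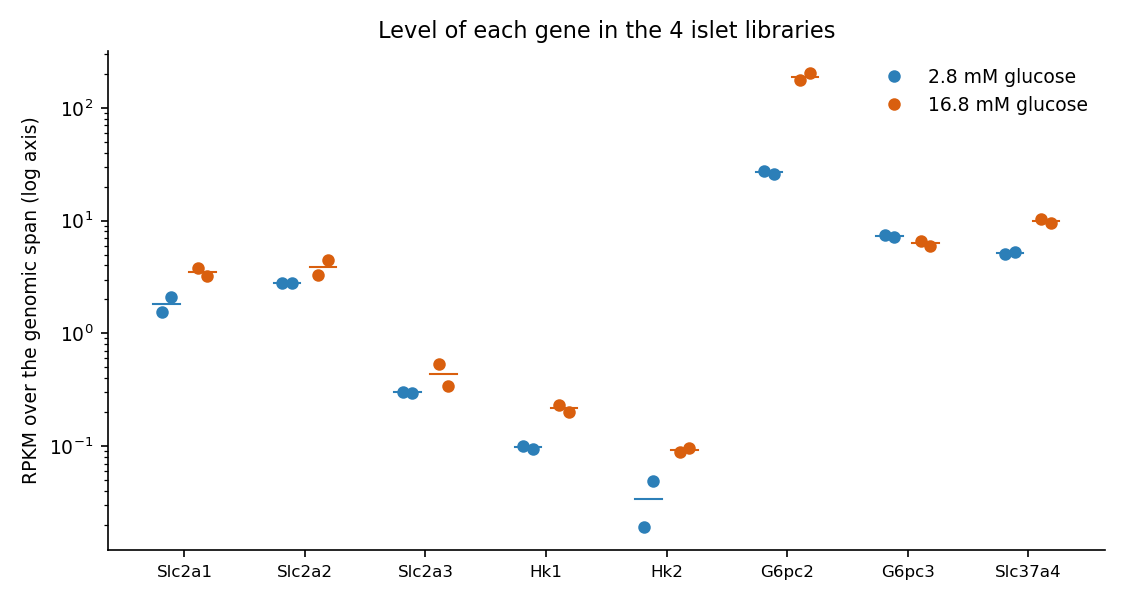
Level of each of the 8 genes in the 4 libraries, as RPKM over the genomic span on a log axis. Each point is a library, the short line is the mean of the 2 libraries of a concentration, and in no gene do the 2 concentrations overlap. G6pc2 stands highest in every library and Hk2 lowest.

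The transporters come first in the path. Slc2a2 encodes GLUT2, the low-affinity, high-capacity transporter of rodent beta cells and hepatocytes. Its gene lies on chromosome 3, from 28596825 to 28627278 on the plus strand, with 11 exons. It stood at 2.78 and 2.77 RPKM at 2.8 mM and at 3.28 and 4.43 RPKM at 16.8 mM. Both high-glucose libraries were above both low-glucose libraries, but they differed from each other more than the lower of them differed from the low-glucose pair. The mean went from 2.78 ± 0.0059 to 3.85 ± 0.819 RPKM (SD, n = 2), 1.39 times, with a log2 fold change of 0.44 ± 0.16 (SE) and an adjusted p of 0.104 by limma. The change was 0.66 without library 1 at 16.8 mM and 0.23 without library 2, with adjusted p of 0.058 and 0.248. Voom gave 0.45 with an adjusted p of 0.0312.

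Slc2a1 encodes GLUT1, the high-affinity transporter that most cells use for basal uptake. It lies on chromosome 4, from 118781316 to 118809935 on the plus strand, with 10 exons. Its values were 1.55 and 2.11 RPKM at 2.8 mM, and 3.83 and 3.24 RPKM at 16.8 mM. The low-glucose libraries were the more uneven pair in proportion, and the groups did not overlap. The mean rose from 1.83 ± 0.4 to 3.53 ± 0.42 RPKM (SD, n = 2), 1.93 times, with a log2 fold change of 0.92 ± 0.18 (SE) and an adjusted p of 0.026 by limma. This call rested on few libraries. The adjusted p was 0.0729 without library 1 at 2.8 mM, 0.0992 without library 1 at 16.8 mM and 0.0905 without library 2 at 16.8 mM, and 0.0608 when no minimum level was set. By voom it was 0.00176.

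Slc2a3 encodes GLUT3, a high-affinity transporter best known from neurons. It lies on chromosome 6, from 122677827 to 122692763 on the minus strand, with 10 exons. It was the least abundant of the 3 transporters, at 0.305 and 0.298 RPKM at 2.8 mM and 0.533 and 0.341 RPKM at 16.8 mM. A single library, 1 at 16.8 mM, stood apart from the rest. The log2 fold change was 0.40 ± 0.18 (SE) with an adjusted p of 0.167 by limma, and it was 0.14 without that library and 0.66 without library 2 at 16.8 mM, with adjusted p of 0.294 and 0.0532. The reads behind these values numbered 231 to 483 per library.

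The 3 transcripts that overlap the span of Slc2a1, Mir1957 and Gm12867 within it and Gm12868 across its end, and the antisense 1700112D23Rik across Slc2a2, have no value of their own in the table, and reads from them could be counted within the transporter. Whether counting used strand is not stated for these libraries.

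Levels can be set against each other between genes only per length. For this purpose the reads of each gene were divided by the summed length of its exons and by the depth of the library, a measure called RPKM over exons here, which still includes any intronic reads. On this scale Slc2a2 had 33.0 and 32.9 at 2.8 mM, and Slc2a1 had 17.0 and 23.2. At 16.8 mM Slc2a2 had 38.9 and 52.6 and Slc2a1 had 42.0 and 35.5. Slc2a2 was thus the higher in 3 of the 4 libraries, and its ratio to Slc2a1 was 1.95 and 1.42 at 2.8 mM and 0.925 and 1.48 at 16.8 mM. The ratios of the 2 concentrations overlapped. Slc2a3 stayed below Slc2a2 by 28.7 and 29.3 times at 2.8 mM and by 19.3 and 40.9 times at 16.8 mM, again with overlap.

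The hexokinases Hk1 and Hk2 are the high-affinity forms that run near full speed at low glucose, and both are known for their low level in adult beta cells. Both were low here. Hk1 lies on chromosome 10, from 61731603 to 61803290 on the minus strand, with 18 exons in the form matched to the measured row. It stood at 0.101 and 0.0947 RPKM at 2.8 mM and at 0.234 and 0.202 RPKM at 16.8 mM, from 424 and 353 reads and from 1018 and 735 reads. Each group was close within itself and they were well apart. The mean rose from 0.0979 ± 0.00453 to 0.218 ± 0.0226 RPKM (SD, n = 2), 2.23 times. The added 0.1 RPKM is as large as the value at low glucose, and so the fitted log2 fold change of 0.68 ± 0.09 (SE, adjusted p = 0.0128 by limma) understates this ratio, while voom on the reads gave 1.15 (adjusted p = 0.000193). Without library 1 or without library 2 at 16.8 mM the adjusted p was 0.054 and 0.0532.

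A longer RefSeq entry of Hk1 changed in the same direction. It stood at 0.0676, 0.0633, 0.155 and 0.133 RPKM, and changed by 0.56 ± 0.09 (SE) on the log2 scale, at an adjusted p of 0.0182 by limma. Over the 110805 bases of the longest coding form these values correspond to 438, 364, 1043 and 747 reads, nearly the reads of the shorter form, so the entries hold largely the same reads and do not count as 2 measurements. The antisense transcript 2210417K05Rik, which has no value in the table, overlaps the start of the shorter form.

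Hk2 lies on chromosome 6, from 82675019 to 82724448 on the minus strand, with 18 exons. It was the lowest of the 8 genes in every library, at 0.019 and 0.0494 RPKM at 2.8 mM and 0.088 and 0.0972 RPKM at 16.8 mM. These are 55, 127, 264 and 244 reads, so library 1 at 2.8 mM stood well below its replicate. The mean went from 0.0342 ± 0.0215 to 0.0926 ± 0.0065 RPKM (SD, n = 2), 2.71 times. It was below the minimum for the limma fit. With no minimum the log2 fold change was 0.53 with an adjusted p of 0.0813, and by voom 1.62 with an adjusted p of 0.00832. Gm17034, a lincRNA on the other strand, lies within the span of Hk2 and has no value in the table. In RPKM over exons Hk1 was 9.93 and 3.58 times as high as Hk2 at 2.8 mM and 4.97 and 3.88 times at 16.8 mM, and the 2 ranges overlapped.

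G6pc2 encodes the catalytic subunit of the islet form of glucose-6-phosphatase, a product largely restricted to islets. Its gene lies on chromosome 2, from 69058028 to 69065898 on the plus strand, with 5 exons, and no other annotated gene overlaps it. It stood at 27.5 and 25.9 RPKM at 2.8 mM and at 177 and 202 RPKM at 16.8 mM, from 12663 and 10604 reads and from 84449 and 80591 reads. The replicates were close within each concentration and every high-glucose value was far above the low-glucose ones. The mean rose from 26.7 ± 1.12 to 189 ± 17.6 RPKM (SD, n = 2), 7.08 times, with a log2 fold change of 2.82 ± 0.12 (SE) and an adjusted p of 0.00327 by limma. Relative to the median of all rows it rose by 2.94.

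The rise of G6pc2 was the 25th of 13761 genes by log2 fold change, and the 8th of the 963 whose mean reached 10 RPKM. By level in RPKM over the span it moved from rank 362 and 366 among 24157 genes and lncRNAs at 2.8 mM to rank 42 and 35 at 16.8 mM. Long genes stand low on that scale, so these ranks are not an order of transcript abundance. It kept its call when any of the 4 libraries was left out, with adjusted p of 0.00497 to 0.033 and a log2 fold change of 2.72 to 2.91. A further RefSeq entry of the gene, with a start 8898 bases further upstream, stood at 13.1, 12.3, 84.1 and 95.8 RPKM and changed by a log2 of 2.81. Over its span of 16769 bases these values correspond to 12831, 10750, 85576 and 81654 reads, nearly those of the shorter form, and so do not count as a second measurement.

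G6pc3 encodes the ubiquitous catalytic subunit. It lies on chromosome 11, from 102050983 to 102055395 on the plus strand, with 6 exons and no overlapping gene. It stood at 7.40 and 7.22 RPKM at 2.8 mM and at 6.59 and 5.97 RPKM at 16.8 mM. Both high-glucose libraries were lower than both low-glucose libraries, by little. The mean went from 7.31 ± 0.128 to 6.28 ± 0.435 RPKM (SD, n = 2), 0.859 times, with a log2 fold change of -0.22 ± 0.10 (SE) and an adjusted p of 0.16 by limma. Relative to the median of all rows this was -0.09. Voom gave -0.22 with an adjusted p of 0.0349.

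Slc37a4 encodes the transporter that brings glucose 6-phosphate to the active site of both phosphatases in the endoplasmic reticulum. It lies on chromosome 9, from 44205182 to 44211045 on the plus strand, with 9 exons and no overlapping gene. It stood at 5.08 and 5.25 RPKM at 2.8 mM and at 10.2 and 9.55 RPKM at 16.8 mM. The replicates were close and the groups well apart. The mean rose from 5.17 ± 0.122 to 9.89 ± 0.483 RPKM (SD, n = 2), 1.92 times, with a log2 fold change of 0.92 ± 0.09 (SE) and an adjusted p of 0.00872 by limma. Without library 1 or without library 2 at 16.8 mM the log2 fold change was 0.87 and 0.97, and the adjusted p was 0.0534 and 0.0552.

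**Figure D2:**
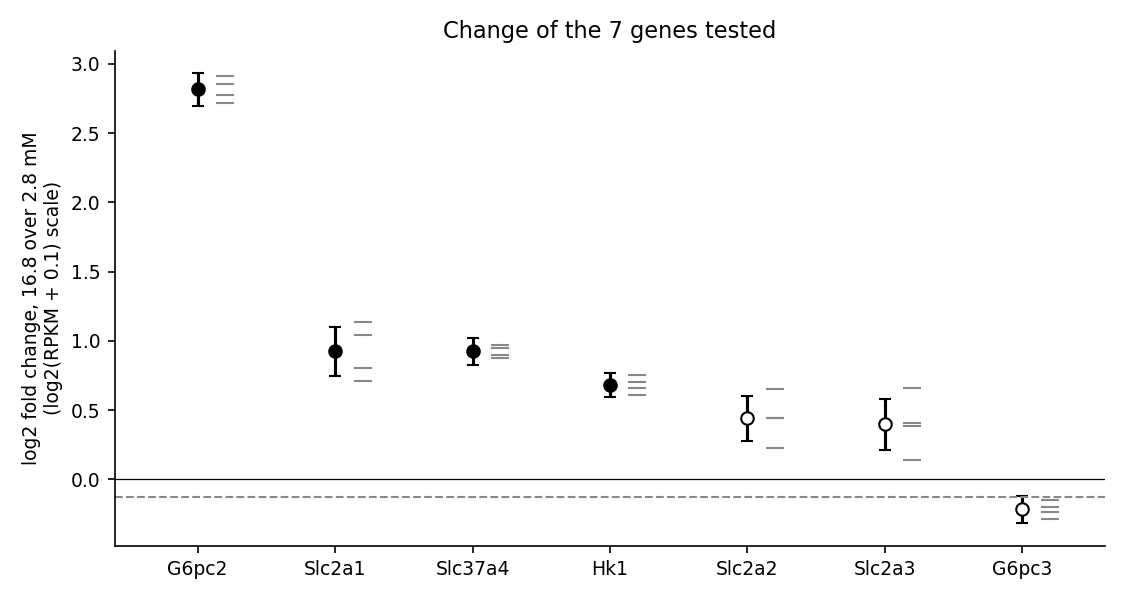
Log2 fold change of the 7 genes tested, 16.8 over 2.8 mM glucose, on the log2(RPKM + 0.1) scale. Circles are the limma estimates with their SE, filled where the adjusted p was under 0.05, grey dashes to the right are the values with each library left out in turn, and the dashed line is the median of all rows, -0.13. G6pc2 at 2.82 stands apart from the other 6, which lie between -0.22 and 0.92.

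The makeup of the phosphatase transcripts differed between the concentrations. In RPKM over exons G6pc2 was 5.51 and 5.33 times as high as G6pc3 at 2.8 mM and 39.8 and 50.04 times at 16.8 mM. A ratio within a library does not depend on how the library was scaled, and the difference in its log2 between the concentrations was 3.04, against SDs of 0.035 and 0.234 between replicates. With 2 libraries per group an exact permutation test could not pass the threshold, and none was run. G6pc2 to Slc37a4, a pair added after the values were seen, went from 8.99 and 8.19 to 28.6 and 35.0. Both high-glucose ratios were above both low-glucose ratios, with a difference of 1.88 in the log2 ratio.

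**Figure D3:**
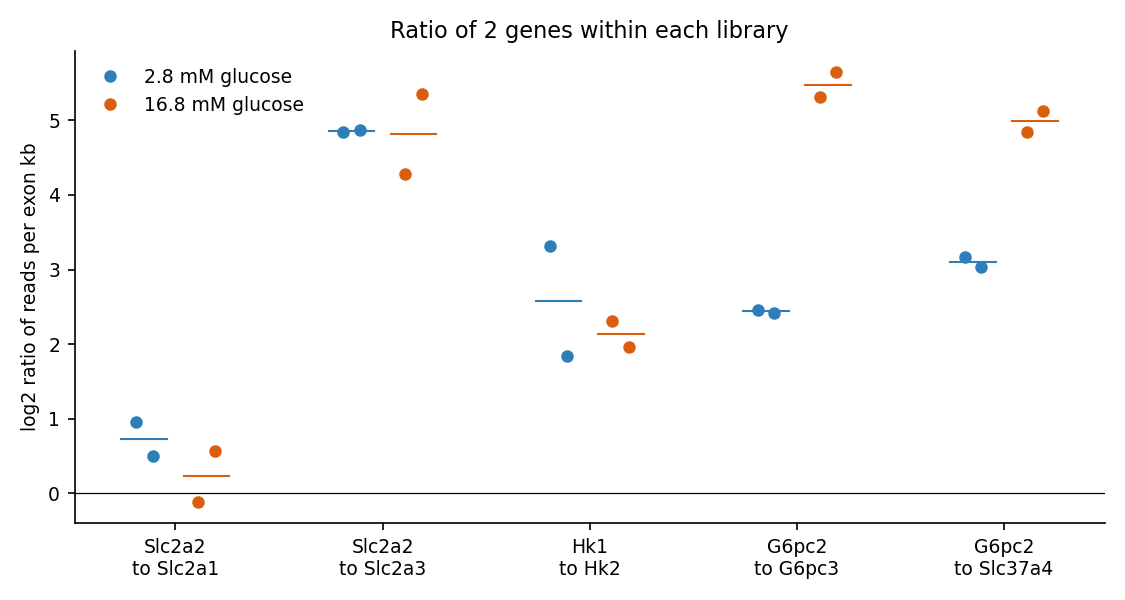
Log2 ratio of the reads per exon kilobase (RPKM over exons) of 2 genes within each library, with the mean of each concentration as a line. The 2 concentrations overlap for the transporter and hexokinase pairs and are apart for G6pc2 to G6pc3 (2.44 against 5.48) and G6pc2 to Slc37a4 (3.10 against 4.98).

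The order of the 8 genes on the scale of RPKM over exons was similar at both concentrations, with a few exchanges. At 2.8 mM G6pc2 was highest at 115 and 108, followed by Slc2a2 at 33.0 and 32.9. Slc2a1 at 17.0 and 23.2 and G6pc3 at 20.8 and 20.3 overlapped. Slc37a4 followed at 12.7 and 13.2, and then came Hk1 at 1.69 and 1.59, Slc2a3 at 1.15 and 1.12, and Hk2 at 0.171 and 0.443. At 16.8 mM G6pc2 stood at 735 and 838, and Slc2a2 and Slc2a1 overlapped below it. Slc37a4, at 25.7 and 24.0, was now above G6pc3, at 18.5 and 16.8, in both libraries, the reverse of their order at 2.8 mM, which also held on the RPKM scale. Hk1 followed at 3.92 and 3.38, then Slc2a3 at 2.01 and 1.29, and Hk2 at 0.789 and 0.871 was again the lowest.

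Islets hold several cell types, and in such tissue a change in the number of cells of a type and a change in RNA per cell cannot be told apart. Markers of beta cells moved with glucose. The shares of all rows to set beside the counts below were 8.68% higher and 21.2% lower by limma. Without adjustment they were 12.9% and 32.3%, and by voom 13.6% and 31.5%. Single calls in the short lists are not read as results on those cell types. Of 8 beta cell markers 6 rose by limma and 0 fell (1 without adjustment and 1 by voom), and their summed level was 20572 to 22921 RPKM at 2.8 mM and 40963 to 43736 RPKM at 16.8 mM, almost all of it Ins1, Ins2 and Iapp. Mafa, a beta cell transcription factor, rose with a log2 fold change of 2.48 and Pdx1 with 1.37, whereas Slc30a8, the zinc transporter of insulin granules, stood at -0.26 (adjusted p = 0.1 by limma). None of the alpha (5), delta (3) and PP cell (1) markers passed by limma. Without adjustment 1 delta marker was higher, and by voom 1 delta marker was higher and 1 alpha marker lower. The 9 acinar markers summed to 84.9 and 246 RPKM at 2.8 mM and to 210 and 442 RPKM at 16.8 mM, with none past the threshold by limma, with or without adjustment, or by voom. Library 2 was the higher in acinar markers within each group, and among the 8 genes this held at both concentrations for Hk2 alone. By limma 1 of 4 duct markers was lower (1 higher and 1 lower without adjustment), 1 of 8 endothelial markers higher (2 without adjustment), 1 of 5 leukocyte markers tested higher (also 1 without adjustment) and 0 of 4 stromal markers tested called (also 0 without adjustment). Voom called 2 duct markers higher and 1 lower of 4, 2 of 8 endothelial and 2 of 8 leukocyte markers higher, and 0 of 7 stromal markers. No marker was at 0 in every library. The part of these shifts in the results for the 8 genes was not tested.

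Of 57 further genes around the glucose 6-phosphate step, in 6 lists that were not tested against each other, 56 were in the table. By limma 40 could be tested, of which 19 rose and 3 fell. Of all rows tested by limma 8.68% were higher and 21.2% lower, and without adjustment 12.9% and 32.3%. By voom the shares were 13.6% and 31.5%. The counts of each list below are to be read beside these shares. The median log2 fold change of the 40 genes was 0.31, against -0.13 for all rows. Adjusted calls were lost when any 1 library was left out, above all when it was either library at 16.8 mM, both in these lists and over all rows. Fewer samples enter those fits. With all 4 libraries 20 genes of the lists were higher and 4 lower by limma at an unadjusted p under 0.05. For the fits that left out a library no share of all rows at an unadjusted p is given, so counts at that level are not read here.

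The other hexose transporters were mostly at low levels, and 5 of 15 could be tested. Slc2a5, a fructose transporter, was the 1 that rose, and Slc2a6 the 1 that fell. Slc2a6 stood at 0.536, 0.551, 0.36 and 0.395 RPKM in the order 2.8 mM library 1 and 2 and 16.8 mM library 1 and 2, and fell by 0.43 on the log2 scale (adjusted p = 0.0205 by limma). Neither of the 2 tested genes among Hk3, Hkdc1, Adpgk and G6pc, further glucose-phosphorylating enzymes and the hepatic phosphatase, passed by limma, with or without adjustment, and voom called 1 of 3 higher. G6pc, the hepatic catalytic subunit, stood at 0.005 to 0.0194 RPKM. None of the 3 other members of the SLC37 family passed, with or without adjustment or by voom, with log2 fold changes of -0.08 to 0.13. A test of the difference between them and Slc37a4 was not made.

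Among enzymes that use or form glucose 6-phosphate, 6 of the 9 tested rose and 0 fell, also without adjustment. By voom 7 of 11 rose and 0 fell. Gpi1, which converts glucose 6-phosphate to fructose 6-phosphate, stood at 6.02 and 8.39 RPKM at 2.8 mM and 17.3 and 13.7 RPKM at 16.8 mM. Its log2 fold change was 1.10 ± 0.21 (SE, adjusted p = 0.0253 by limma). Of the phosphofructokinases and the enzymes that make or remove their activator, 3 of 6 rose and 0 fell, likewise without adjustment and, of 7, by voom. Pfkfb3, which makes that activator, went from 0.357 and 0.509 RPKM to 2.10 and 1.76 RPKM, with a log2 fold change of 1.94 ± 0.17 (SE, adjusted p = 0.00732 by limma).

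In lower glycolysis 9 of 15 tested genes rose and 2 fell, with a median log2 fold change of 1.22. Slc16a3, a lactate exporter, went from 0.243 and 0.484 RPKM to 2.33 and 1.94 RPKM and rose most of all listed genes, with a log2 fold change of 2.32 ± 0.28 (SE). Ldha, the lactate dehydrogenase subunit kept low in beta cells, went from 1.82 and 3.81 RPKM to 10.7 and 9.39 RPKM, with a log2 fold change of 1.89 ± 0.36 (SE). Both had an adjusted p under the threshold by limma, 0.0112 and 0.0249. The abundant enzymes Tpi1, Pgk1, Pgam1, Eno1, Gapdh and Pkm rose with log2 fold changes of 1.22 to 1.52. Aldoa, the most abundant at 142 and 191 RPKM at 2.8 mM and 283 and 231 RPKM at 16.8 mM, had a log2 fold change of 0.63 and an adjusted p of 0.0706 by limma. Eno2 and Pklr, the neuronal enolase and the liver and red cell pyruvate kinase, fell, with log2 fold changes of -0.68 and -0.56. Several of these genes have processed pseudogenes, and how the authors treated reads that fit several copies is not stated for these libraries.

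**Figure D4:**
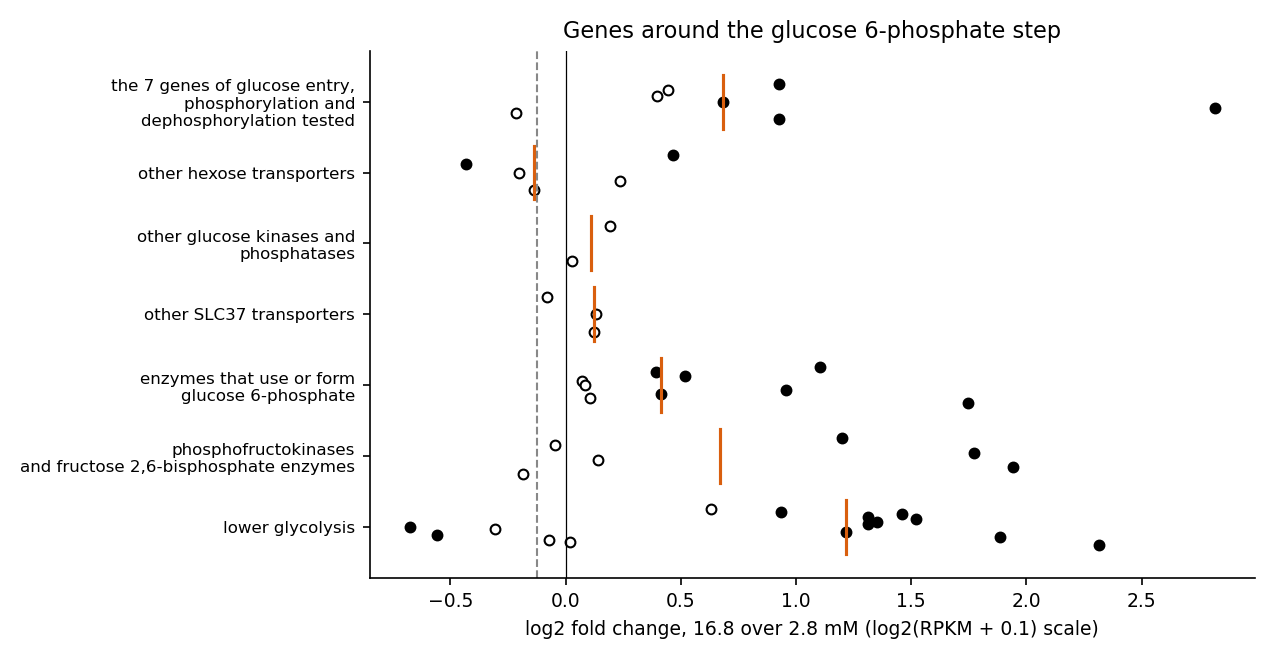
Log2 fold change, 16.8 over 2.8 mM glucose, of the genes tested in each list, on the log2(RPKM + 0.1) scale. Each circle is a gene, filled where the adjusted p was under 0.05 by limma, the orange line is the median of the list and the dashed line the median of all rows. The other hexose transporters and SLC37 genes lie between -0.43 and 0.46, and most of lower glycolysis lies between 0.6 and 2.3.

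The genes whose pattern over the 4 libraries was nearest to that of G6pc2 were found by the Euclidean distance of log2(RPKM + 0.1) values centred on their mean, among the 6844 other genes whose mean reached 1 RPKM. The nearest 2 were lncRNAs, on chromosomes 12 and 1, at distances of 0.231 and 0.282, and the next was Nr4a2, a nuclear receptor of the immediate early class, at 0.302. Nr4a2 went from 0.442 and 0.389 RPKM to 4.03 and 3.46 RPKM.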

How the data were processed

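Mouse islets at 2.8 and 16.8 mM glucose were profiled by RNA-seq (TruSeq, single reads, Illumina HiSeq), with 2 libraries per concentration, grouped by the labels' glucose concentration. The authors deposited RPKM values per transcript for the 4 libraries, and all columns of sample values were used. Per the labels, STAR, the mm9 genome (NCBI build 37), bedtools and DESeq were used, without versions. The 33923 rows were reduced to 28047 by using identical rows of a symbol once. RPKM times the genomic span gave whole reads, within 0.1 read, for 73.8% to 78% of values of 2 to 40 reads, against 28% to 33.1% for exon lengths, and so gave the depth of each library and the approximate reads behind a value. Transcript spans and exons were those of GENCODE vM1, matched by symbol.

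Rows whose mean reached 0.1 RPKM entered a limma 3.58.1 fit (R 4.3.3) on log2(RPKM + 0.1) with a variance trend and no replicate block, with Benjamini-Hochberg adjustment over all 16234 rows and a threshold of 0.05. The minimum and the added value were set this low because long genes with many reads have a low RPKM over their span. Limma voom on the reconstructed reads was an alternative, as were other added values, minimum levels, normalisations, and leaving out each library. The code was tested on simulated data. The genes, gene lists and tests were chosen with earlier results of these data known. Members were named in full. Of the pathway lists, the 3 largest changes in each direction and genes with a mean above 10 RPKM were named, Slc2a5 and G6pc being added after their values were seen. Promoters came from RefSeq and were placed on build 37 by exact match. Ratios within libraries, marker sums and motif counts are descriptions without a test. Protein sequences were not used here. The genes nearest in pattern to G6pc3 are not reported here.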

Additional observations from a re-analysis of the deposited data

How the results depend on the processing

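With 2 libraries per concentration every call is limited, and those of Slc2a1, Slc37a4 and Hk1 were lost without single libraries. Leaving out 1 library at a time, 385 to 1498 rows were called in place of 4845, 1 to 4 of the 8 genes in place of 4, and 0 to 14 genes of the pathway lists in place of 22. Fewer samples enter those fits. All 8 genes kept their direction under every alternative that gave a value, and G6pc2 its call.

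With a minimum mean of 1 RPKM, 2593 rows were called, and 2628 with 0.5 RPKM added as well, of 7867 tested. That minimum left out Slc2a3, Hk1 and Hk2. Voom on reconstructed reads called 7 of the 8 genes, adding Slc2a2, Hk2 and G6pc3. The difference in the log2 ratio of Slc2a2 to Slc2a3 changed from -0.05 to 0.49 without library 1 at 16.8 mM, over a range of -0.59 to 0.49, and that of Hk1 to Hk2 from -0.44 to 0.29 without library 1 at 2.8 mM, over a range of -1.18 to 0.29. Both were within the spread between replicates. Dividing by exon length in place of the span raised the mean log2 ratio of Slc2a2 to Slc2a3 from 3.21 to 4.86 at 2.8 mM and of G6pc2 to G6pc3 from 1.87 to 2.44.

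The replicate numbers name no shared animal or day, so they were not taken to pair the libraries. The deviations of the libraries numbered 1 from their group means had a correlation of 0.13 over 16234 rows. With 2 libraries per concentration those numbered 2 give the same value, and it does not show whether the libraries are paired. With the replicate block 6950 rows, 3 of the 8 genes (Slc2a1 at an adjusted p of 0.051) and 21 pathway genes were called, and voom with the block called 8213 rows and 8 of the 8 genes.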
